A study of Homo sapiens with 12 samples.

Results

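This account concerns 3 mature microRNAs (miRNAs) of the miR-506 to miR-514 cluster on Xq27, hsa-miR-508-3p, hsa-miR-509-3p and hsa-miR-513a-5p, in extracellular vesicles of the cell line HT55. They were chosen from their high counts in HT55, so their level there is a description and carries no test; no numeric threshold was part of that choice. They are 3 of the 1636 miRNAs in the count table, and 3 of the 12 names of this cluster that have a row in it. miR-508-3p and miR-513a-5p passed the filter on low counts only through their HT55 libraries, while miR-509-3p also reached it in other lines.

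Small RNA was sequenced from vesicles shed by 6 cell lines that the labels call CRC, the usual abbreviation of colorectal cancer. The lines were Car-1, Hutu80, HT55, MDST8, RCM-1 and SW1116, each with 2 of the 12 libraries. All were grown in the same serum-containing medium without a drug or genetic change named in the labels, and vesicles were taken from the conditioned medium by ultrafiltration and size-exclusion chromatography. The study set out to compare molecular subtypes, but no label used here ties a line to a subtype, so each line stands as its own group.

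Total counts per library ran from 71831 to 622800, and HT55 had 138753 and 206808. One count was worth 7.21 and 4.84 CPM (the count over its library total, on a fixed common scale) in the HT55 libraries and between 1.61 and 13.9 CPM in the other 10. Unscaled CPM below uses the library total alone, while TMM-scaled CPM is further corrected by the trimmed mean of M values, a scaling for composition. Its factors ran from 0.642 to 1.46.

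Genes of the miR-506 to miR-514 cluster lie in a run of short hairpins near FMR1, the gene of fragile X syndrome, and they are best known as miRNAs of the testis. Several of them are also described in melanoma, and they change quickly between mammalian species. A miRNA lowers the output of messenger RNAs that pair with its seed, bases 2 to 8 from the 5′ end.

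The mature sequences of the 3 miRNAs are shown first because their seeds decide which messages they can pair with, and because near copies in the cluster bear on how reads were assigned. They are taken from RefSeq (GRCh38.p14), written 5′ to 3′ with the seed in capitals.
miR-508-3p: uGAUUGUAgccuuuuggaguaga
miR-509-3p: uGAUUGGUacgucuguggguag
miR-513a-5p: uUCACAGGgaggugucau
miR-513b-5p: uUCACAAGgaggugucauuuau
miR-513c-5p: uUCUCAAGgaggugucguuuau
miR-509-5p: uACUGCAGacaguggcaauca
miR-509-3-5p: uACUGCAGacguggcaaucaug
miR-514a-3p: aUUGACACuucugugaguaga

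No other mature miRNA in the RefSeq table had the seed of miR-508-3p, miR-509-3p or miR-513a-5p. miR-508-3p and miR-509-3p shared their first 6 bases and differed at 8 of the 22 positions compared. miR-513a-5p differed from miR-513b-5p by 1 substitution over its 18 bases, G7A, with positions counted from 1 at the 5′ end of miR-513a-5p. It differed from miR-513c-5p by 3, A4U, G7A and A17G. Counts of the 3 miR-513 names are uncertain to the extent that the counting could assign a read to more than 1 of them, since how such reads were treated is not given in the sources used here. miR-509-5p and miR-509-3-5p shared a seed and their first 10 bases. Past an extra a in miR-509-5p they also shared the stretch guggcaauca. How reads of these near copies were assigned is likewise not given, so their separate counts carry the same uncertainty.

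The cluster's 15 hairpins lay on the minus strand of chromosome X between 147189704 and 147284728 (GRCh38.p14), a span of 95.025 kb that ended 627.223 kb from FMR1. MIR508 lay at 147236913 to 147237027, and was the 1 hairpin of miR-508-3p. miR-509-3p can come from 3 hairpins, MIR509-1 (147260532 to 147260625), MIR509-3 (147259652 to 147259726) and MIR509-2 (147258760 to 147258850). miR-513a-5p can come from 2, MIR513A1 (147213463 to 147213591) and MIR513A2 (147225826 to 147225952). Of the 15 hairpins, 11 lay in introns of AL589669.1, a long noncoding RNA gene annotated on the opposite strand, and 0 lay in an exon of it. MIR510 and the 3 MIR514A hairpins were intergenic. miR-509-3p is the same in all 3 of its hairpins, while the 5p arm sets MIR509-3 apart from MIR509-1, and MIR509-2 has the 5p arm of MIR509-1. Below, both arms that were counted stand in capitals.
MIR509-1: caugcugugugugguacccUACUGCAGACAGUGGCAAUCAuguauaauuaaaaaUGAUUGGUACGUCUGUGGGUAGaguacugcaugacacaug
MIR509-3: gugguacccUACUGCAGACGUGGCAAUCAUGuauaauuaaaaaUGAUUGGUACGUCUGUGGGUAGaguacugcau

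miR-509-3p, which has been described as low in renal cell carcinoma, was the most abundant of the 3. Its raw counts were 930 and 667 in the HT55 libraries, 24 and 24 in Car-1, 18 and 21 in MDST8, 142 and 80 in SW1116, 15 and 11 in Hutu80, and 12 and 28 in RCM-1. As unscaled CPM these were 6703 and 3225 in HT55, 139 and 174 in Car-1, 53.0 and 68.4 in MDST8, 228 and 161 in SW1116, 209 and 109 in Hutu80, and 69.6 and 75.2 in RCM-1. Both HT55 libraries lay above all 10 others, and the lower of them was 14.1 times the highest other library, SW1116 replicate 1. Pooled over libraries, the unscaled level was 4621 CPM in HT55 and 134 CPM in the other 5 lines, a ratio of 34.5 (95% counting interval 30.8 to 38.7). From HT55 replicate 1 alone the ratio was 50.0 (44.3 to 56.5), and from replicate 2 it was 24.0 (21.2 to 27.4). The pooled interval thus covers counting error only, not the spread between the HT55 libraries or among the other lines. Against single lines the ratio for both HT55 libraries ran from 23.3 (SW1116) to 76.6 (MDST8). SW1116 held 222 of the 375 counts outside HT55. miR-509-3p was detected in every library, at 11 counts or more.

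miR-508-3p, also described as low in renal cell carcinoma, was about an order of magnitude less abundant. Its raw counts were 71 and 55 in HT55, 4 and 1 in Car-1, 0 and 1 in MDST8, 11 and 8 in SW1116, 2 and 0 in Hutu80, and 1 and 1 in RCM-1. As unscaled CPM these were 512 and 266 in HT55, 23.2 and 7.26 in Car-1, 0 and 3.26 in MDST8, 17.7 and 16.1 in SW1116, 27.8 and 0 in Hutu80, and 5.80 and 2.68 in RCM-1. The HT55 libraries again lay above the other 10, of which 2 were at 0, and the lower was 9.55 times Hutu80 replicate 1, the highest of them by CPM on only 2 counts. The pooled unscaled level was 365 CPM in HT55 (126 counts) and 10.4 CPM in the other 5 lines (29 counts), a ratio of 35.1 (95% counting interval 23.3 to 54.6). From HT55 replicate 1 alone the ratio was 49.3 (31.6 to 78.8), and from replicate 2 it was 25.6 (16.1 to 41.7).

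miR-513a-5p, known for pairing with the message of the immune checkpoint ligand CD274, was the scarcest. Its raw counts were 22 and 15 in HT55, 1 and 0 in Car-1, 0 and 1 in MDST8, 1 and 0 in SW1116, and 0 in both libraries of Hutu80 and of RCM-1. In unscaled CPM the HT55 libraries held 159 and 72.5, and the highest other library, Car-1 replicate 1, held 5.79. Outside HT55 it was thus at 0 in 7 of 10 libraries and at 1 count in the rest. Over all 10 other libraries 3 counts stood against 37 in HT55, a ratio of pooled unscaled CPM of 99.8 with a wide 95% counting interval of 31.6 to 505.8. With a floor of 3 counts over both libraries, a count of 0 allows up to 17.4 CPM in Hutu80 and 5.51 CPM in RCM-1. The pooled HT55 level stood 6.15-fold above that floor for Hutu80 (exact lower 95% limit of the ratio 4.76). For RCM-1 it stood 19.4-fold above the floor (exact lower 95% limit 15.04). From HT55 replicate 2 alone these lower limits were 2.99 and 9.45.

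**Figure D1:**
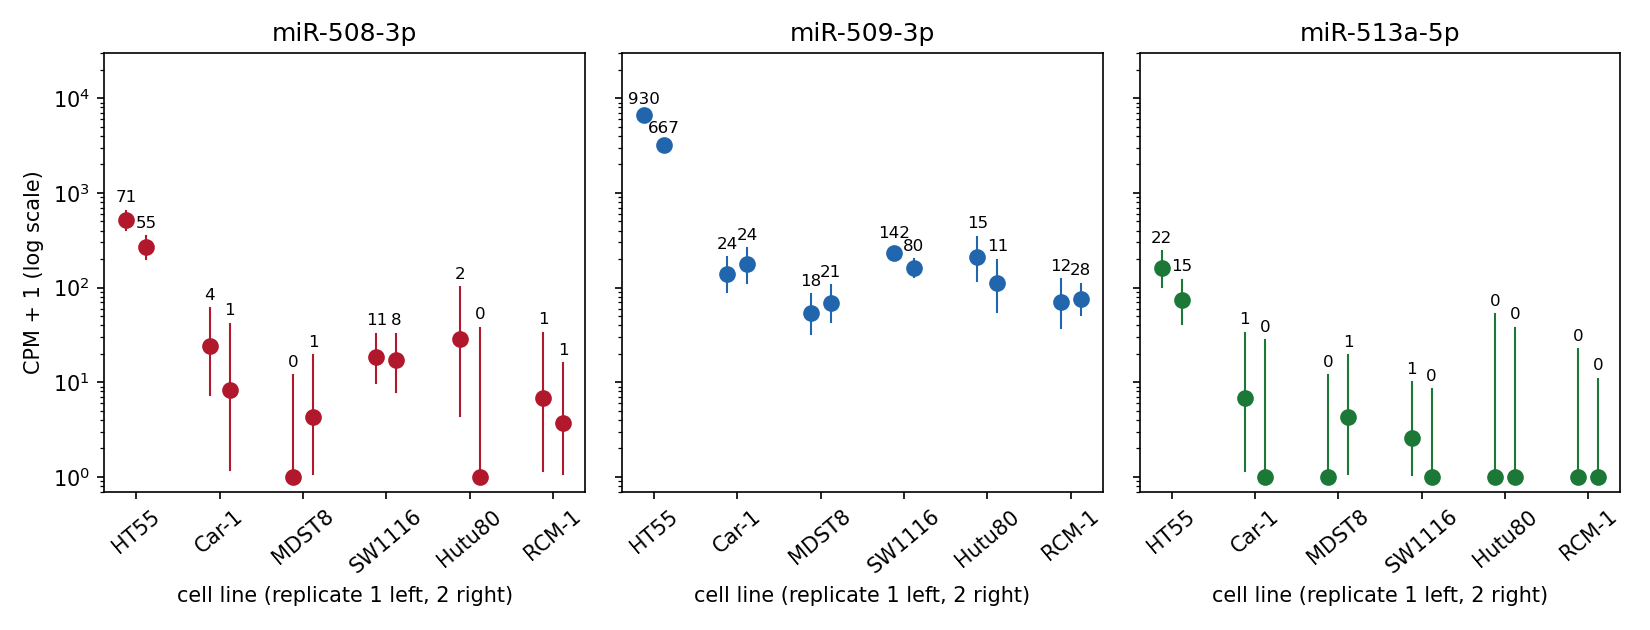
Unscaled CPM + 1 on a log axis of miR-508-3p, miR-509-3p and miR-513a-5p in each of the 12 libraries, with 95% counting intervals as bars and the raw count above each. The 2 HT55 points lie above the other 10 in each panel, miR-509-3p never falls below 11 counts, and miR-513a-5p is at 0 in 7 of the 10 other libraries.

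On the TMM scale, mean levels ± SD over 2 libraries kept this order of abundance in HT55. miR-509-3p stood at 5570 ± 3506 CPM, miR-508-3p at 435 ± 254 CPM and miR-513a-5p at 130 ± 85.5 CPM. Of the summed line means, HT55 held 89.4% for miR-509-3p, 89.2% for miR-508-3p and 96.5% for miR-513a-5p. SW1116 came next for miR-509-3p (4.54%) and miR-508-3p (5.08%).

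In the edgeR fit of 318 tested miRNAs, the log2 difference of HT55 from the mean of the other lines was 6.70 (SE 0.92) for miR-513a-5p, the largest of all. It was 5.79 (SE 0.54) for miR-508-3p and 5.60 (SE 0.25) for miR-509-3p, ranking 3 and 4. The median over all tested miRNAs was -0.08. These fitted values lean on a prior count where a line was at or near 0, and no p is given for them because these same counts chose the miRNAs. Among all tested, 44 of 318 miRNAs (13.8%) were called higher in HT55 and 33 (10.4%) lower, and 15 (4.72%) had both HT55 libraries above all 10 others. The number called lower rested on both HT55 libraries, since it was 9 without replicate 1 and 16 without replicate 2, while 67 were called higher without Car-1 replicate 2.

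**Figure D2:**
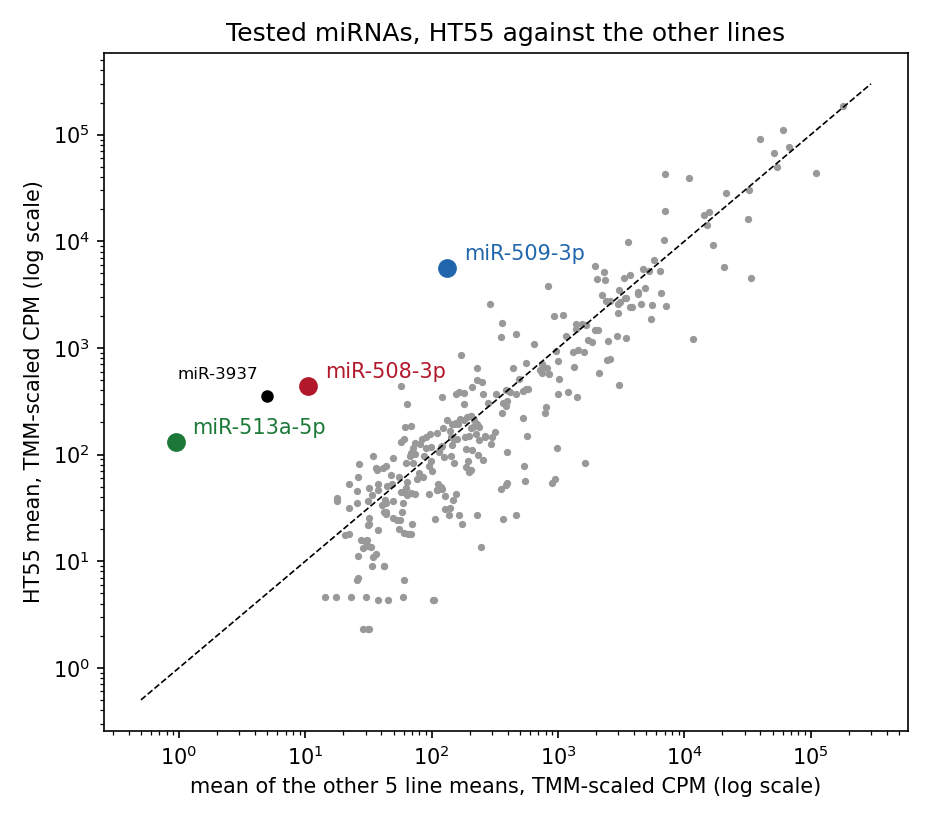
Mean TMM-scaled CPM in HT55 (2 libraries) against the mean of the other 5 line means, both on log axes, for the tested miRNAs, leaving out 10 of the 318 that were at 0 in both HT55 libraries; the dashed line marks equal levels. miR-508-3p, miR-509-3p, miR-513a-5p and miR-3937, an X-linked miRNA outside the cluster, lie farthest above the line.

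The HT55 libraries differed from each other in the level of all 3 miRNAs, always with replicate 1 higher. The ratio of unscaled CPM, replicate 1 over replicate 2, was 1.92 for miR-508-3p (95% counting interval 1.33 to 2.79), 2.08 for miR-509-3p (1.88 to 2.30) and 2.19 for miR-513a-5p (1.08 to 4.53). The 3 ratios lay within each other's intervals, and each interval lay above 1. On the TMM scale the gap between the HT55 libraries was 1.27, 1.38 and 1.44 on the log2 scale for miR-508-3p, miR-509-3p and miR-513a-5p, against a median of 0.47 over all tested miRNAs. A larger gap was seen for 19.5%, 16.04% and 14.2% of tested miRNAs. miR-514a-3p went the other way, with 2 counts in replicate 1 and 26 in replicate 2, a ratio of 0.115 (0.0132 to 0.458). miR-513b-5p had 0 and 10 counts (upper bound 0.665), so these 2 miRNAs lay outside the interval of miR-509-3p. The ratio was 2.09 for miR-513c-5p (0.862 to 5.25), 3.58 for miR-509-3-5p (1.65 to 8.38) and 13.4 for miR-506-3p (1.86 to 588.0), on 9 and 1 counts. miR-509-5p and miR-514a-5p both gave 0.745 (0.200 to 2.39 and 0.0674 to 5.20). The intervals of these 5 held the value of miR-509-3p.

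**Figure D3:**
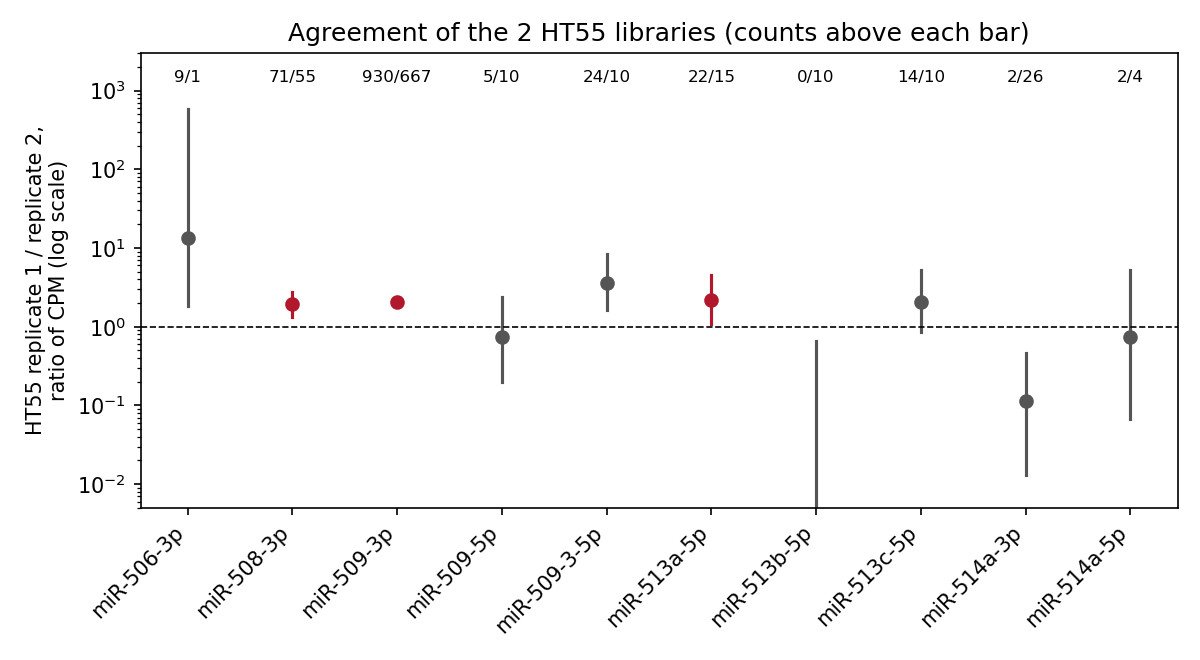
Ratio of unscaled CPM in HT55 replicate 1 over replicate 2 on a log axis for 10 miRNAs of the cluster, with 95% counting intervals as bars, the counts of both libraries printed at the top and the 3 described miRNAs in red. Those 3 lie close together near 2.08, miR-514a-3p lies at 0.115, and miR-513b-5p has no point because it was at 0 in replicate 1.

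Levels among the other 5 lines did not choose these miRNAs. Since miR-509-3p reached the filter in other lines too, it could be tested there. miR-509-3p differed among Car-1, Hutu80, MDST8, RCM-1 and SW1116 (edgeR's quasi-likelihood test, adjusted p = 0.000521), as did 223 of 318 tested miRNAs (70.1%). Its TMM-scaled levels, as mean ± SD over 2 libraries, were 283 ± 46.8 CPM in SW1116, 128 ± 50.5 in Hutu80, 108 ± 15.8 in Car-1, 80.3 ± 3.07 in RCM-1 and 61.3 ± 6.21 in MDST8. SW1116 was the highest, and no pair of the remaining 4 lines passed the test, while 58 to 137 of the 318 tested miRNAs did. Without both SW1116 libraries the adjusted p was 0.248, an alternative added after seeing the data.

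By edgeR, SW1116 was higher in miR-509-3p than MDST8 by 2.20 on the log2 scale (SE 0.44, adjusted p = 0.000251). It was higher than RCM-1 by 1.81 (SE 0.44, adjusted p = 0.00664). Over all 318 tested miRNAs, 111 were called between SW1116 and MDST8 and 43 between SW1116 and RCM-1. Against Car-1 and Hutu80 the numbers were 125 and 140. The differences from Car-1 (1.39, SE 0.43, adjusted p = 0.0123) and Hutu80 (1.17, SE 0.46, adjusted p = 0.0417) depended on the scaling. With library totals as the only scaling they were 0.32 (adjusted p = 0.533) and 0.33 (adjusted p = 0.558). The choice of scaling moved the median of all tested miRNAs between SW1116 and Car-1 from -0.26 to -1.33, and that between SW1116 and Hutu80 from -0.24 to -1.07. In unscaled CPM the SW1116 libraries (228 and 161) overlapped those of Car-1 and Hutu80, and lay above those of MDST8 and RCM-1. Both called differences were also lost without SW1116 replicate 1 (adjusted p = 0.0669 for Car-1 and 0.118 for Hutu80), and that from Hutu80 without Hutu80 replicate 2 (0.124). In limma-voom the differences from RCM-1, Car-1 and Hutu80 did not pass (adjusted p = 0.0655, 0.0661 and 0.179), while that from MDST8 did.

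miR-508-3p did not pass among the other 5 lines (edgeR adjusted p = 0.0713). TMM-scaled levels were 24.7 ± 0.36 CPM in SW1116, 10.9 ± 15.4 in Hutu80, 10.6 ± 7.93 in Car-1, 4.73 ± 2.52 in RCM-1 and 1.57 ± 2.21 in MDST8. SW1116, with 19 counts, was the only one of these lines with more than 5. MDST8 had the fewest, 1 count. Since miR-508-3p entered the tested set only through HT55, nothing is read from this test. No difference between single lines is drawn from these few counts. The pooled unscaled CPM of HT55 was 21.5 times that of SW1116 (95% counting interval 13.2 to 36.9), beside 23.3 times (20.3 to 27.0) for miR-509-3p. From HT55 replicates 1 and 2 alone the values were 30.2 and 15.7 for miR-508-3p, and 33.8 and 16.3 for miR-509-3p. miR-513a-5p, also tested only through HT55, had at most 1 count per line and an edgeR adjusted p of 0.851 among the 5 lines. A difference was not detectable at this depth, and nothing is read from that test.

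Outside HT55 and SW1116, the count of miR-509-3p moved less than the size of the library. Over the 8 libraries of Car-1, MDST8, Hutu80 and RCM-1 it ran from 11 to 28, a range of 2.55-fold. Their total counts ran from 71831 to 372549, a range of 5.19-fold. The unscaled CPM therefore spread over 3.94-fold, from 53.0 to 209, with the highest value in the shallowest library. What sets this low level was not tested.

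The proportion of the 2 abundant miRNAs differed by less than counting error between HT55 and the other lines. Of the counts of miR-508-3p and miR-509-3p together, miR-508-3p made up 7.31% in HT55 (exact 95% binomial interval 6.13 to 8.65), with 7.09% and 7.62% in its libraries. It made up 7.88% in SW1116 (4.81 to 12.04), 6.13% in the other 8 libraries pooled (2.98 to 10.99) and 7.18% over all 5 other lines (4.86 to 10.1). The HT55 value lay inside each of the other intervals, although the total level differed by 34.5-fold for miR-509-3p. Of the counts of miR-513a-5p and miR-509-3p together, miR-513a-5p made up 2.26% in HT55 (1.60 to 3.11), 0.448% in SW1116 (0.0114 to 2.47) and 0.794% over the 5 other lines (0.164 to 2.30). Those intervals overlapped, on 3 counts outside HT55.

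**Figure D4:**
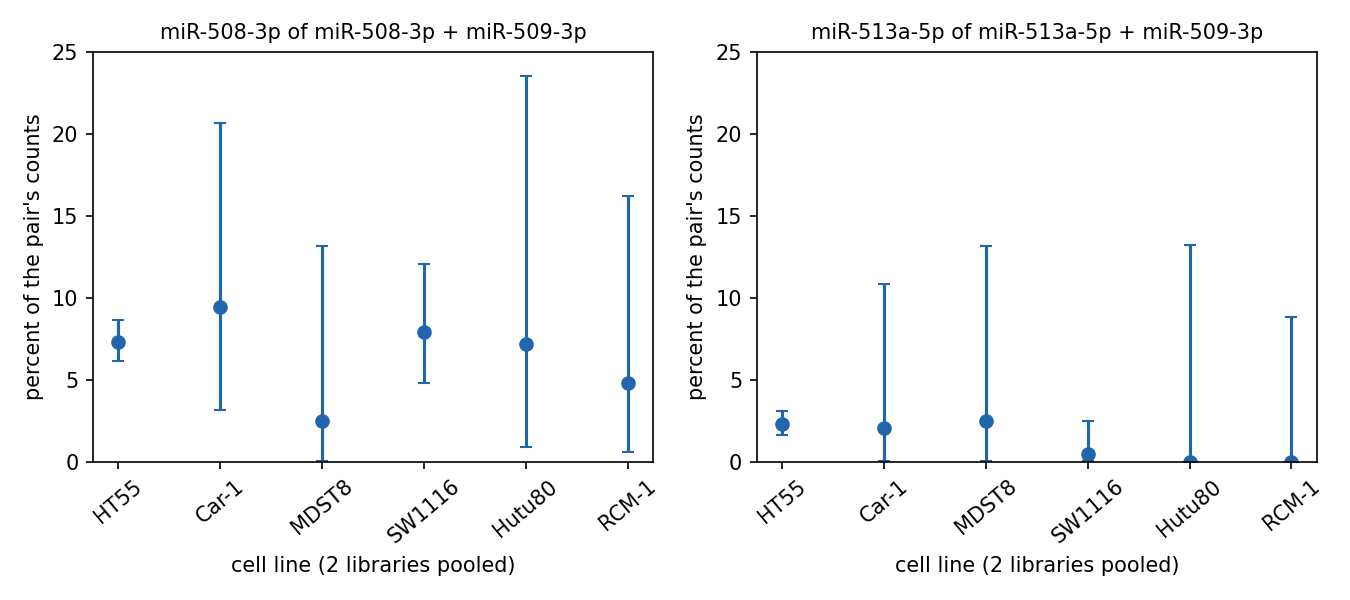
Percent of the summed counts of each pair taken by miR-508-3p (left) and by miR-513a-5p (right), the other of the pair being miR-509-3p, per line with 2 libraries pooled and exact 95% binomial intervals as bars. The share of miR-508-3p is 7.31% in HT55 and 7.88% in SW1116, and the intervals of Car-1, MDST8, Hutu80 and RCM-1 are too wide to rank them.

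The 5p products of the miR-509 hairpins were scarce beside the 3p product. miR-509-3-5p, from the MIR509-3 hairpin shown above, had 24 and 10 counts in HT55 and 20 counts over the other 10 libraries. Of the counts of miR-509-3-5p and miR-509-3p together it made up 2.08% in HT55 (exact 95% binomial interval 1.45 to 2.90) and 5.06% in the other 5 lines (3.12 to 7.71). These intervals did not overlap, but that rested on HT55 replicate 2, at 1.48% (0.711 to 2.70), since replicate 1, at 2.52% (1.62 to 3.72), overlapped. In SW1116 the share was 5.13% (2.68 to 8.79). miR-509-5p, from MIR509-1 and MIR509-2, had 5 and 10 counts in HT55 and 0 in all 10 other libraries. In pooled unscaled CPM, HT55 stood 40.4-fold above a floor of 3 counts over those libraries (exact lower 95% limit of the ratio 29.02). Thus the 3p arm was the dominant product in both HT55 and the other lines.

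Across the whole cluster, 12 of 20 listed names had a row in the count table and 11 had a count. HT55 showed 9 and 11 of them in its libraries, and the other 10 libraries showed 8 between them. All cluster counts came to 1079 and 809 in the HT55 libraries, or 0.778% and 0.391% of all counts, and to between 0.00588% and 0.0278% in the others. miR-509-3p alone made up 84.6% of the cluster's counts in HT55 (exact 95% binomial interval 82.9 to 86.2) and 82.8% in the other 5 lines (79.0 to 86.1). miR-507, miR-508-5p, both arms of miR-510, the 3p arms of miR-513a, miR-513b and miR-513c, and miR-514b-5p had no row in the count table used here.

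The cluster's 9 remaining miRNAs with a row fell under the filter on low counts and were fitted with no filter on low counts, over 1223 miRNAs, where 56 (4.58%) were called higher in HT55. Of the 8 with a count, 6 were called higher, namely miR-506-3p, miR-509-5p, miR-509-3-5p, miR-513b-5p, miR-513c-5p and miR-514a-3p. This is the contrast that chose the described miRNAs, and the neighbours share their hairpin cluster, so nothing is read from it. The number was 2 in DESeq2, 3 without HT55 replicate 1, 5 with at least 10 CPM in 2 libraries and 7 in limma-voom. miR-514a-5p (2 and 4 counts in HT55, 1 elsewhere) and miR-514b-3p (0 and 1, 0 elsewhere) were not called, with edgeR adjusted p-values of 0.0554 and 0.907. With at least 10 CPM in 2 libraries miR-514a-5p was called higher (adjusted p = 0.0174). miR-506-5p was at 0 in every library.

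The ratios of these neighbours had wide counting intervals. The pooled interval of miR-509-3-5p lay below that of miR-509-3p, but this rested on HT55 replicate 2. From replicate 1 the intervals overlapped (12.8 to 46.1, and 44.3 to 56.5 for miR-509-3p). From replicate 2 they did not (2.83 to 15.1, and 21.2 to 27.4). In pooled unscaled CPM, HT55 over the other 5 lines, the ratio was 13.8 for miR-509-3-5p (95% counting interval 7.69 to 25.2) and 19.4 for miR-513c-5p (8.95 to 45.5). It was 22.7 for miR-514a-3p (10.7 to 52.3) and 16.2 for miR-506-3p (5.04 to 60.3), a miRNA known for lowering regulators of the epithelial-mesenchymal transition. Single HT55 libraries moved both: miR-514a-3p gave 4.03 (0.429 to 18.9) from replicate 1 and 35.1 (16.4 to 81.7) from replicate 2, and miR-506-3p gave 36.3 (10.9 to 137.8) and 2.70 (0.0572 to 24.2). miR-514a-5p gave 48.5 (5.89 to 2233), on 1 count outside HT55. miR-513b-5p was at 0 outside HT55. There HT55 stood 27.0-fold above a floor of 3 counts (exact lower 95% limit 18.1), on 10 counts that were all in replicate 2. In SW1116, miR-509-3-5p had 7 and 5 counts, miR-513c-5p 6 and 1, miR-514a-3p 4 and 3, and miR-506-3p 2 and 3. SW1116 thus held counts of 7 cluster miRNAs, the same number as Car-1, which had 61 cluster counts against its 273.

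**Figure D5:**
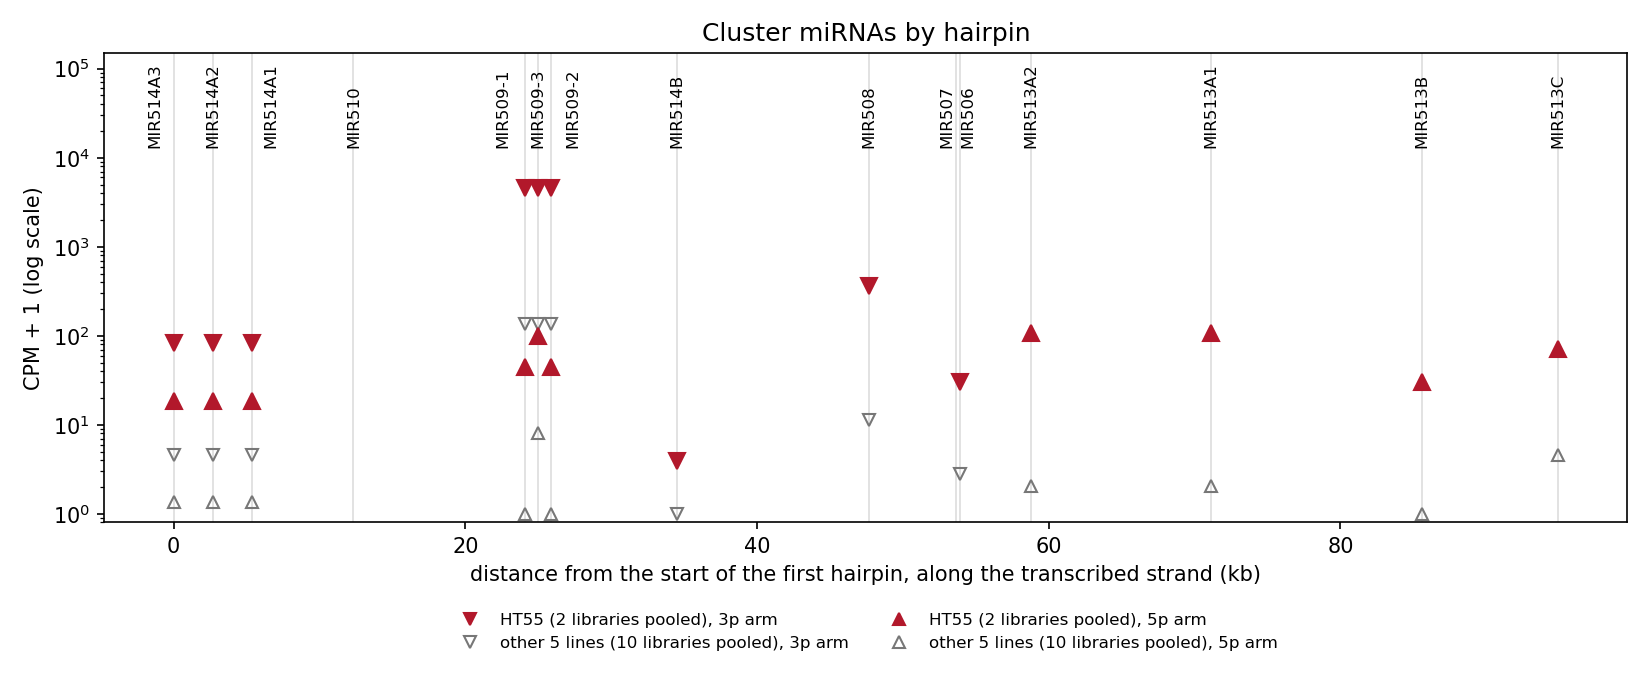
Pooled unscaled CPM + 1 on a log axis of each detected cluster miRNA at each hairpin that can give rise to it, against the distance in kb along the transcribed strand; filled symbols are HT55, open ones the other 5 lines, and triangles point down for 3p and up for 5p arms. The pooled HT55 level is the higher for each miRNA drawn, and miR-509-3p is the highest in both sets. MIR507 and MIR510 have no point, and MIR514B rests on 1 HT55 count. A miRNA with several hairpins is drawn at full level at each, since its reads cannot be placed among them.

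Over the 6 line means of log2(TMM-scaled CPM + 1), the miRNA most like miR-508-3p was miR-509-3p (Pearson r = 0.983), followed by miR-513a-5p (0.865), miR-4488 (0.848), miR-432-5p (0.817) and miR-1247-3p (0.798). For miR-509-3p the next after miR-508-3p were miR-513a-5p (0.921), miR-4488 (0.837), miR-3937 (0.831) and miR-1247-5p (0.785). For miR-513a-5p the first was miR-3937 (0.932), then miR-509-3p, miR-508-3p, miR-7704 (0.825) and miR-4433b-5p (0.765). These are descriptions over 6 points that share libraries and depth, and HT55 was the highest line for each miRNA named here. The 3 described miRNAs were all chosen as high in HT55, so their likeness to each other was partly set by that choice.

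miR-3937, whose hairpin is also on chromosome X but outside the cluster, had 59 and 44 counts in HT55 and 0 to 4 in the other libraries. HT55 held 93.5% of its summed line means, second after miR-513a-5p. After the 3 described miRNAs and miR-3937 the share fell to 63.9% for miR-1247-5p and 60.5% for miR-1247-3p. miR-1246 (55.0%), miR-194-3p (50.2%), miR-200b-5p (48.7%) and miR-2110 (48.2%) completed the first 10. Other lines thus held a much larger part of those 6 miRNAs than of the described 3.

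The name of the cluster as testis-type rests on where it is known to be expressed, and other miRNAs of the testis and germ cells were scarce in HT55. They took 0.000721% and 0.00193% of HT55 counts, against 0 to 0.0185% in the other libraries. miR-34c-5p, a miRNA of germ cells and ciliated cells, had 0 counts in both HT55 libraries and up to 21 in MDST8, and it was not called (edgeR adjusted p = 0.267). It was the 1 tested member of that list of 15. miR-34c-3p also had 0 in both HT55 libraries, while miR-204-5p of that list had 0 and 2 there and up to 32 in MDST8. The melanocyte miRNA miR-211-5p was at 0 in HT55 as well.

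Neighbouring Xq27 miRNAs outside the cluster were not called higher in HT55. In the miR-888 cluster, known from the epididymis, miR-891a-5p had 2 and 4 counts in HT55 and 0 to 11 elsewhere, while miR-891b and miR-892a had 0 in HT55. No member of that list was tested. Of the other Xq27 miRNAs, miR-505-3p had 31 and 42 counts in HT55 and was not called (log2 difference 0.33, SE 0.37, edgeR adjusted p = 0.563), and miR-504-5p had 0 and 3. Over 37 tested miRNAs of chromosome X outside the cluster, 4 were higher in HT55 (miR-3937, miR-224-5p, miR-320d and miR-92a-3p) and 3 lower (miR-221-3p, miR-361-3p and miR-92a-2-5p). That is 10.8% higher, beside 13.8% over all tested. Their median difference was -0.13 on the log2 scale, beside -0.08 over all tested.

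Of 2 further groups of primate or embryonal miRNAs, the chromosome 19 cluster had 5 members with a count and the embryonal miR-302 and miR-371 clusters had 7, and 0 of them were tested. Each HT55 library held 1 count of each group, or 0.000721% and 0.000484% of its total. Those of the chromosome 19 cluster were of miR-498-5p and miR-516a-5p, and 1 of the embryonal ones was of miR-371a-5p. The high counts of HT55 in the Xq27 cluster were thus not accompanied by more than single counts of these.

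Intestinal epithelial miRNAs were compared as well, although a contrast among lines with the same label cannot check that label. Of 10 tested, 8 were called higher and 0 lower in HT55, with a median log2 difference of 1.91, beside 13.8% higher and 10.4% lower over all tested. They made up 13.5% and 14.0% of HT55 counts against 0.527% to 13.8% in the others. Among them miR-200c-3p, miR-200b-3p and miR-375-3p were higher by 2.17 (SE 0.21), 2.64 (SE 0.19) and 2.68 (SE 0.20), while miR-192-5p, a miRNA of the gut and liver, was higher by 1.08 (SE 0.20). These are differences from the mean of 5 lines. In unscaled CPM, some other libraries exceeded the HT55 mean, reaching 94495 against 84962.5 for miR-200c-3p, 7282 against 5565 for miR-375-3p and 13869.5 against 4883 for miR-192-5p. For miR-200b-3p none did (at most 20498.5 against 36398). Blood miRNAs made up 0.438% and 0.479% of HT55 counts, inside the range of 0.0925% to 0.536% in the others. Of 4 tested, 1 was called, against that same background of 13.8%. Their median log2 difference was 1.24, beside -0.08 over all tested. miR-486-5p was higher (1.20, SE 0.22, edgeR adjusted p = 0.000112). miR-122-5p (1.29, SE 0.64, adjusted p = 0.153) and miR-451a (0.58, SE 0.32, adjusted p = 0.200) were not called. The part of either group in the level of the Xq27 cluster was not tested.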

How the data were processed

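The authors deposited whole-number counts of mature miRNAs per library, not normalised, and a second table of log2 values. The deposited log2 values equal log2(CPM + 1) of the counts over all 19632 cells (largest difference 5e-14), so the counts were used. Per the labels' protocols, libraries followed IsoSeek, a small RNA method with unique molecular identifiers. Per the submitters' processing notes, reads were placed on hg38. The sources used here do not give the aligner, annotation release or counter, or say if identifiers were collapsed, so intervals and floors of 3 counts cover counting error only.

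Of 1636 miRNAs, 413 were at 0 throughout, 1223 had a count and 318 passed edgeR's filterByExpr with the line as group. All 12 libraries (3141138 counts) entered 1 fit with a mean per line, TMM factors and edgeR's quasi-likelihood test (glmQLFit, robust, glmQLFTest; edgeR 4.0.16, R 4.3.3), checked on simulated data. The common biological coefficient of variation was 0.304. P-values were adjusted by Benjamini-Hochberg over all tested, with a threshold of 0.05. SE is the size of a difference over the square root of F. No label says whether a line's libraries are separate cultures, and p-values then measure only the spread between libraries, possibly a technical one. Ratios of CPM have exact conditional counting intervals and shares exact Clopper-Pearson intervals (95%).

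Alternatives were RLE factors, library totals, no filter, 10 CPM in 2 libraries, DESeq2 1.42.0, limma-voom 3.58.1, a block for the replicate number, and fits without the 10 most abundant miRNAs, without each library and, added after seeing the data, without both SW1116 libraries. Members and lists were chosen with earlier results of these data known. miRNAs named were drawn from the cluster's 20, the 5 most like each of the 3 and the 10 with the largest HT55 share. They were also drawn from up to 3 of each other list with the highest mean CPM and any list member called in HT55. Not all of those list members are named above.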

Additional observations from a re-analysis of the deposited data

How the results depend on the processing

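The test of miR-509-3p among the other 5 lines passed in all 12 fits without 1 library (adjusted p 1.21e-07 to 0.0131) and under the other settings named above, the highest p being 0.0405 in limma-voom; it was lost without both SW1116 libraries (0.248). That of miR-508-3p was 0.0487 with at least 10 CPM in 2 libraries and ran from 0.0224 (without Hutu80 replicate 1) to 0.174 (without SW1116 replicate 1) when 1 library was left out, against 0.0713, so its side of the threshold rests on single libraries. For miR-513a-5p it ran from 0.795 to 0.938. Leaving out 1 library, miRNAs called in HT55 numbered 42 to 67 higher and 9 to 41 lower, and other cluster miRNAs called numbered 3 to 6; DESeq2 called 2 of them. HT55 levels without 1 of its libraries ran from 255 to 614 (miR-508-3p), 3091 to 8049 (miR-509-3p) and 69.5 to 190 (miR-513a-5p) TMM-scaled CPM. Since miR-508-3p and miR-513a-5p entered the tested set only through HT55, their tests among the other lines decide nothing under any setting. Nothing is read from their p-values above or below, or from the side of the threshold on which miR-508-3p fell.

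Replicate numbers did not pair the samples: over 15 pairs of lines the differences between replicates 1 and 2 correlated at -0.228 to 0.266, above 0.1 in 5. With the replicate block, the adjusted p among the other lines was 0.00022 for miR-509-3p, 0.0598 for miR-508-3p and 0.893 for miR-513a-5p, 42 miRNAs were called higher and 32 lower in HT55, and 5 other cluster miRNAs were called. One count was worth 4.84 and 7.21 CPM in HT55 and up to 13.9 elsewhere, which limits what can be said of miR-513a-5p and the minor cluster miRNAs outside HT55.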
